A study of Mus musculus with 12 samples.

Results

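The 10 genes described here encode SR splicing factors: Srsf1, Srsf2, Srsf3, Srsf4, Srsf5, Srsf6, Srsf7, Srsf9, Srsf10 and Srsf11. They were chosen by name from the 18208 genes of the RNA-seq table, and their hnRNP H CLIP values came from 154 of 147438 distinct 100-nt positions, of which 14 stood in a deposited peak list among 13811 such positions. The choice drew on these data in 1 respect, since Srsf5 was put forward for a 5′ UTR peak that was higher after methamphetamine, so the CLIP values of Srsf5 are given as a description with no test.

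SR proteins carry RNA recognition motifs and a tail rich in arginine and serine, bind enhancer sequences mostly in exons, and help the spliceosome to find nearby splice sites. SRPK and CLK kinases phosphorylate the tail and the importer transportin 3 carries the proteins into the nucleus. Many SR genes hold highly conserved alternative exons that, when included, send the transcript to nonsense-mediated decay, and several SR proteins limit their own level that way. hnRNP H, the protein precipitated here, binds runs of guanine and can raise or lower the use of nearby exons.

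All mice were wild-type, on the C57BL/6J strain, of postnatal day 50 to 100, bred from fathers heterozygous for an Hnrnph1 mutation and C57BL/6J mothers. All received saline on days 1 and 2, and on day 3 either saline again or the psychostimulant methamphetamine at 2 mg/kg by intraperitoneal injection, and whole striata were taken 30 min later. Each of 3 pools per treatment joined the striata of 4 mice, 2 females and 2 males. Part of each pool went to RNA-seq and the rest was cross-linked for CLIP with an antibody to hnRNP H, so that 6 RNA-seq and 6 CLIP libraries were compared, 3 per treatment. Mutant mice were not analysed here.

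The RNA-seq libraries held 3935160 to 5091839 recovered reads each and the CLIP libraries 423057 to 1635338 reads in peaks, and intervals or floors at such depths cover counting error only. Saline pools 1 and 3 and methamphetamine pool 2 (library set A) stood apart from saline pool 2 and methamphetamine pools 1 and 3 (set B), a division seen in the data that the labels do not name and that cuts across treatment. All 10 markers of striatal projection neurons had over 3 reads in every RNA-seq library, and their summed level was 10536 to 12024 CPM in set A and 7455 to 8272 CPM in set B. The 10 cortical markers summed to 211 to 481 CPM in set A and 517 to 932 CPM in set B, with 9 of them over 3 reads in every library. Astrocyte markers (5) summed to 464 to 576 CPM in set A and 647 to 770 CPM in set B, and microglia markers (5) to 206 to 226 and 243 to 281 CPM, also with no overlap. Oligodendrocyte markers (6) summed to 4852 to 11909 CPM in set A and 6478 to 11752 CPM in set B, which overlapped. The 8 choroid plexus markers summed to 142 to 281 CPM in 5 libraries and to 5280 CPM in methamphetamine pool 2. In such bulk tissue, fewer cells of a type and less RNA per cell cannot be told apart.

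Transcripts of all 10 SR genes were present in the striatum, and none passed the test for a treatment difference in the fit over all genes. Per kilobase of the longest coding transcript, Srsf2 was the highest, with a mean of 64.3 CPM per kb over the 6 libraries (range 47.3 to 77.3), followed by Srsf5 at 40.5 (27.9 to 56.4) and Srsf11 at 37.8 (27.0 to 47.0). Srsf9 came next at 34.9 CPM per kb (27.0 to 39.2), before Srsf6 at 26.4 (18.8 to 32.9) and Srsf4 at 24.6 (19.0 to 30.5). Srsf3 had 17.6 CPM per kb (12.3 to 22.6), Srsf7 16.3 (11.8 to 19.5) and Srsf1 14.2 (11.5 to 17.3). Srsf10, which encodes a splicing repressor when it is dephosphorylated, was the lowest at 3.42 CPM per kb (2.41 to 4.92). The ranges of neighbours in this order overlapped except those of Srsf1 and Srsf10. This order compares levels and depends on the transcript taken as the gene's length.

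Between treatments, 7 SR genes were higher and 3 lower after methamphetamine, with a median log2 change of 0.07 against 0.00 over all 18208 genes. With limma and Benjamini-Hochberg adjustment none of the 10 passed, and 0 genes of the whole table did (0%). At an unadjusted p under 0.05 the count was 0 of 10 SR genes and 276 of all genes (1.52%), and edgeR on the recovered reads called 0 of 13299 genes. The 3 methamphetamine and 3 saline values overlapped for all 10, where they did not overlap in 6.01% of all genes. The direction of the SR median depended on single pools, at -0.05 without saline pool 2 and -0.01 without methamphetamine pool 3.

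**Figure D1:**
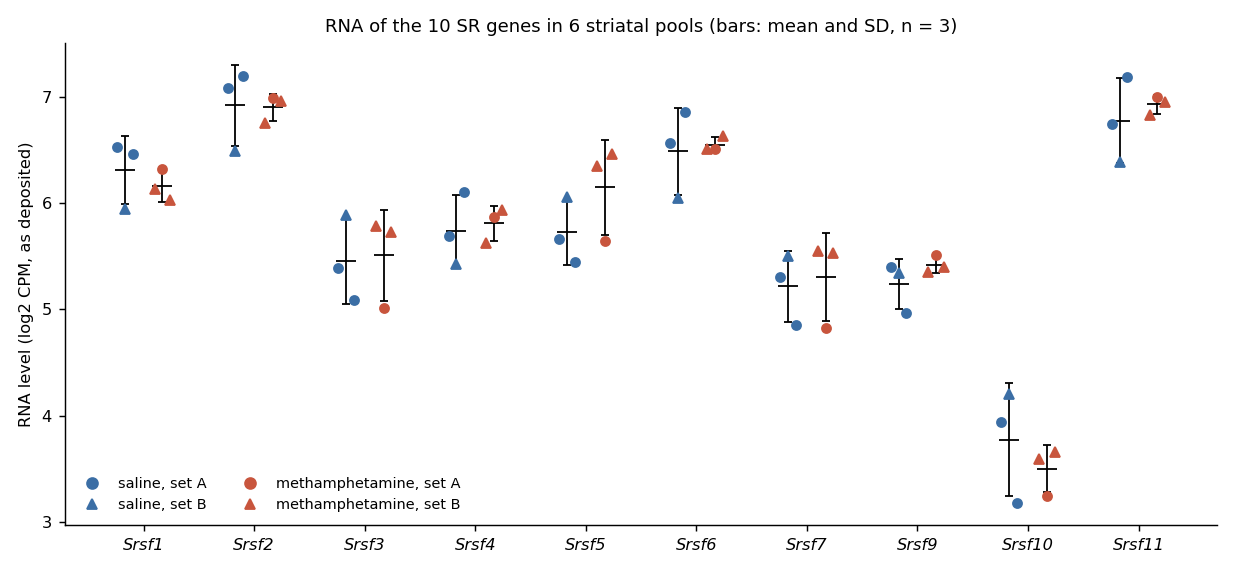
RNA level (y axis, log2 CPM as deposited) of the 10 SR genes (x axis) in each library, saline in blue and methamphetamine in red, with circles for set A and triangles for set B; bars are the mean and SD of 3 libraries. The treatments overlap for each gene, while circles and triangles separate for Srsf1, Srsf2, Srsf3, Srsf5 and Srsf7.

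Srsf5 (chr12:80945504-80950507, plus strand, GRCm38), first described as an insulin-induced gene of growing liver cells, had the largest RNA difference of the 10. Its level was 5.66, 6.06 and 5.45 log2 CPM in saline pools 1 to 3 and 6.35, 5.64 and 6.47 log2 CPM in methamphetamine pools 1 to 3. Methamphetamine pool 2 lay at the level of saline pool 1, and the other methamphetamine pools lay above all 3 saline pools. The saline mean was 5.72 ± 0.31 and the methamphetamine mean 6.15 ± 0.45 (SD over 3 pools), a difference of 0.43 ± 0.25 (SE) with an adjusted p of 0.9998 in the limma fit. Its 3 set B libraries lay above its 3 set A libraries by 0.71 on average, and the treatment difference was 0.08 within set A and 0.35 within set B.

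Library set separated more SR genes than treatment did, as it also did over the whole table, where the treatments did not overlap in 6.01% of genes. In Srsf3, Srsf5 and Srsf7 each set B library lay above each set A library, and in Srsf1 and Srsf2 each set A library lay above each set B library. These 5 of 10 genes stand beside 38.8% of all genes whose sets did not overlap, and the sets were themselves seen in these data. Srsf3, the shortest SR protein and a factor of mRNA export, had 5.39, 5.89 and 5.09 log2 CPM after saline and 5.78, 5.01 and 5.73 after methamphetamine. Srsf7, which also takes part in export and has a zinc knuckle, had 5.30, 5.50 and 4.85 log2 CPM after saline and 5.55, 4.83 and 5.54 after methamphetamine. In both genes the 3 low libraries were those of set A. Srsf1, the founding member of the family, ran the other way, with 6.53, 5.94 and 6.46 log2 CPM after saline and 6.13, 6.33 and 6.03 after methamphetamine. Of the marker sums above, the striatal, cortical, astrocyte and microglia ones move with the same sets, and the oligodendrocyte and choroid plexus ones overlap. The part of any of them in these levels was not tested.

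The other members had smaller set differences. Srsf2, an SR protein concentrated in nuclear speckles, had 6.92 ± 0.38 log2 CPM in the saline pools and 6.90 ± 0.13 with methamphetamine (SD, n = 3 each). Srsf11, which cooperates with Srrm4 at neuronal microexons, had 6.78 ± 0.40 and 6.93 ± 0.09 log2 CPM. Srsf6 was at 6.49 ± 0.41 log2 CPM after saline and 6.55 ± 0.07 after methamphetamine, and Srsf4 at 5.74 ± 0.34 and 5.81 ± 0.16. Srsf9 had 5.24 ± 0.23 and 5.42 ± 0.08 log2 CPM. Srsf10 had the largest difference in the lower direction, with 3.77 ± 0.53 after saline and 3.50 ± 0.22 after methamphetamine, on 36 to 87 reads per library. The adjusted p was 0.9998 for each of these genes in the limma fit, where no gene of the whole table passed. The saline and methamphetamine values of each gene overlapped. Srsf1, Srsf2, Srsf4 and Srsf11 overlap other annotated genes, and whether RNA-seq counting used strand is not given in the sources used here.

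The genes whose RNA pattern over the 6 libraries was closest to Srsf5 were Sncb, which encodes beta-synuclein, with a root mean square difference of 0.05 between centred log2 values, Mydgf, a secreted growth factor gene, at 0.05, and Klhl3, a ubiquitin ligase adaptor, at 0.07. The median over 7852 compared genes, those with a mean above 4 log2 CPM, was 0.40. Srsf10, at a mean of 3.64 log2 CPM, was not compared. Of the other SR genes, Srsf7 (0.19) and Srsf3 (0.20) were nearer to Srsf5 than Srsf9 (0.35). Srsf4, Srsf6, Srsf11, Srsf2 and Srsf1 were farther than the median gene, at 0.50 to 0.57. These values are descriptions over 6 libraries.

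hnRNP H CLIP reads were spread very unequally over the SR genes. Srsf6 held 5636 of the 7285 CLIP reads of the family (77.4%), and between 73.7% and 80.3% in each library. Srsf5 held 6.18% of them, Srsf4 3.54%, Srsf11 3.47%, Srsf10 3.16%, Srsf1 3.02%, Srsf3 1.22%, Srsf9 0.933%, Srsf7 0.618% and Srsf2 0.494%. By mean CPM, Srsf6 ranked 100 among 16910 genes with CLIP positions, Srsf5 2341 and Srsf2 10350. Srsf2 was thus the highest of the family in RNA per kilobase and the lowest in summed CLIP reads. Those sums are not scaled to length, and Srsf2 is the shortest of these genes (3194 nt). It had 0, 1 and 7 reads in the saline pools, against 26, 2 and 0 with methamphetamine. In methamphetamine pool 1 it was above Srsf3 (9 reads) and Srsf7 (19 reads).

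**Figure D2:**
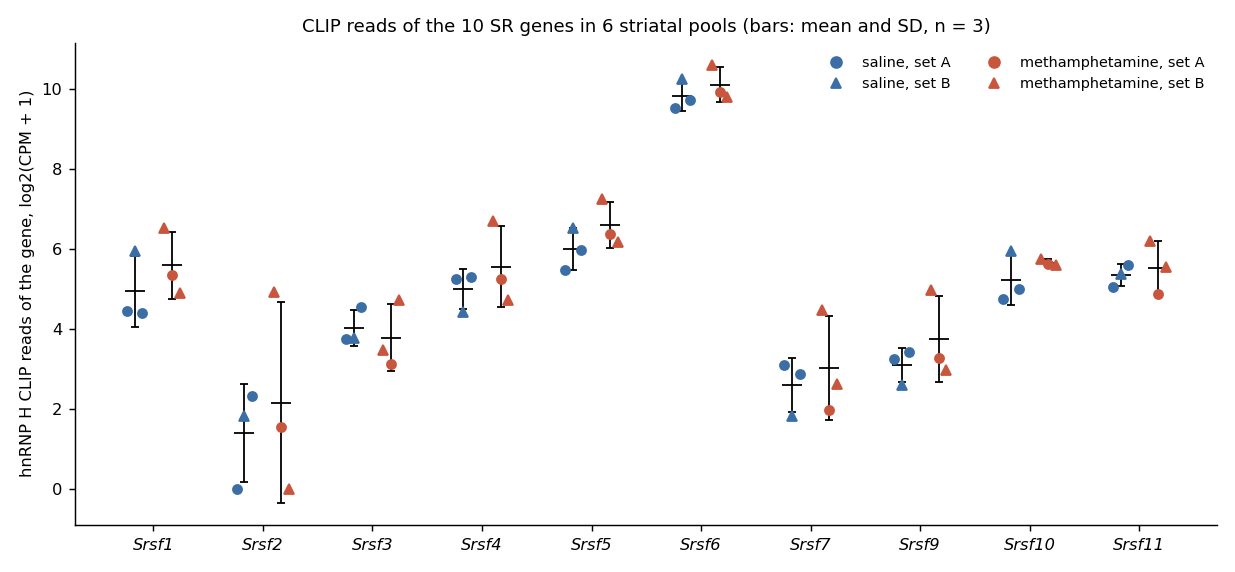
CLIP reads of each SR gene (x axis) as log2(CPM + 1) (y axis) in each library, saline in blue and methamphetamine in red, circles for set A and triangles for set B; bars are the mean and SD of 3 libraries. Srsf6 stands above the other 9 genes in all 6 libraries, and the upper red triangle in most genes is methamphetamine pool 1.

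The genes were also compared relative to RNA. On a scale of log2 CLIP CPM minus log2 RNA CPM of the same pool, Srsf6 had a mean of 3.45, at rank 930 of the 7029 genes measured in both, and Srsf10 had 1.80 at rank 1855. Srsf5 had 0.35, and Srsf4 (-0.51), Srsf1 (-0.99), Srsf11 (-1.42) and Srsf3 (-1.62) lay below the median of all genes, 0.10. Srsf2, Srsf7 and Srsf9 had too few CLIP reads for this value. Most listed CLIP positions lay in introns (67.7% for methamphetamine and 72.2% for saline), and RNA-seq reads need not. The difference therefore ranks genes and does not give the share of a transcript that was bound.

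**Figure D3:**
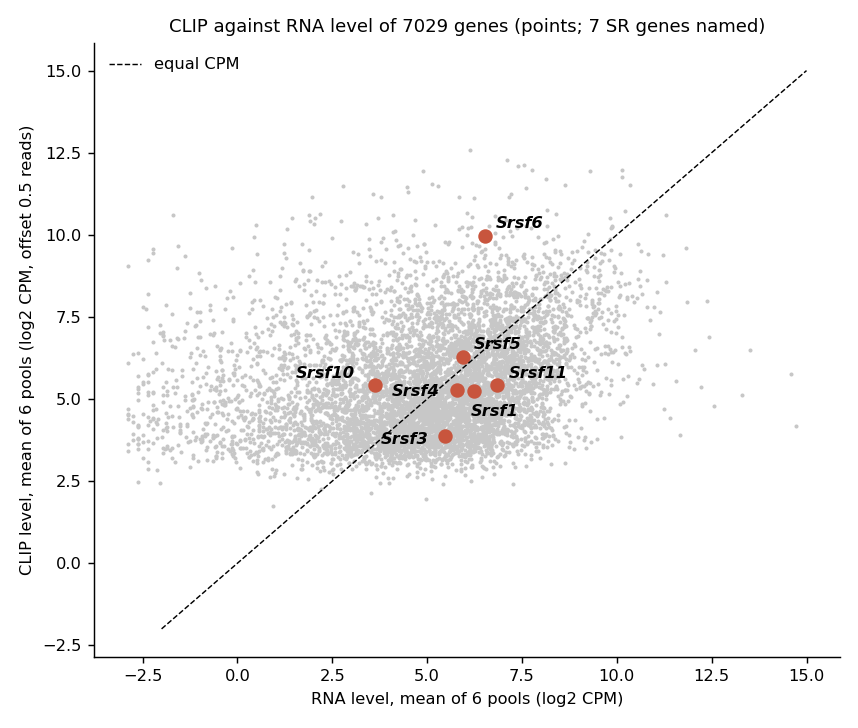
CLIP level (y axis, log2 CPM with an offset of 0.5 reads) against RNA level (x axis, log2 CPM), both means of 6 pools, for 7029 genes in grey and 7 SR genes in red; the dashed line marks equal CPM. Srsf6, Srsf10 and Srsf5 lie above the line and Srsf4, Srsf1, Srsf11 and Srsf3 below it.

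In Srsf6 (chr2:162931528-162937121, plus strand), a factor known for splicing of tau and for an alternative exon in its own transcript, the CLIP reads came from 1 place. 5 of its 8 positions lie within 600 nt (chr2:162932229-162932828) and held 99.2% to 99.9% of the reads of Srsf6 in every library. The stretch starts 87 nt after the second exon and ends 14 nt inside the alternative exon (chr2:162932815-162933082, 268 nt) of Srsf6-201, which GENCODE annotates as a target of nonsense-mediated decay. The remaining 586 nt lie in the intron of 1283 nt that joins exons 2 and 3 of the coding transcript Srsf6-203, which lacks the alternative exon. A shorter form of that exon (165 nt) is also part of the partial coding transcript Srsf6-202, and the retained-intron transcript Srsf6-204 covers the whole stretch.

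The sequence of the stretch is shown because its reads carry the result and because the precipitated protein prefers guanine runs. Each line gives the 30 bases of a position with the most bases in runs of 3 or more G, read from GENCODE M21 transcript sequences (GRCm38, plus strand), 5′ to 3′, with those runs in capitals: position 1 at chr2:162932229-162932258, position 2 at chr2:162932499-162932528, position 3 at chr2:162932529-162932558, position 4 at chr2:162932697-162932726 and position 5 at chr2:162932797-162932826.
Srsf6 position 1: tGGGcaGGGtGGGacctccccagcccGGGc
Srsf6 position 2: gcattgaggaagtttctaggaaggctGGGG
Srsf6 position 3: tggaggtGGGGcaGGGGGcGGGGaaaGGGG
Srsf6 position 4: GGGGcatgttactGGGaGGGGGttGGGGGG
Srsf6 position 5: gatgtttcaatttgaaagtgaccaatGGGG
Over its whole 100 nt, position 1 held 8 such runs, position 3 held 6 with a longest run of 9, position 4 held 4, position 2 held 2 and position 5, which reaches the exon, held 1. The windows of positions 3 and 4 had 17 and 18 bases in runs, so the order of the positions by runs is not their order by reads, given next.

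Position 3 (chr2:162932529-162932628), had the most reads: 369, 153 and 664 in saline pools 1 to 3 and 522, 465 and 229 in methamphetamine pools 1 to 3. It ranked 267 by mean CPM among all 147438 positions. Position 1 followed with 171, 203 and 327 reads in the saline pools, against 292, 187 and 154 with methamphetamine. Position 2 had 147, 65 and 228 reads in the saline pools, against 245, 202 and 96 with methamphetamine. Position 4 had 71, 36 and 191 reads in the saline pools, against 203, 133 and 38 with methamphetamine. Position 5 was the lowest with 14, 15 and 48 reads in the saline pools, against 127, 18 and 5 with methamphetamine. Reads thus fell off toward the alternative exon in each of the libraries, and position 3 was ahead of position 1 in 5 of 6.

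The deposited lists did not single out the highest position. Positions 2 and 5 stood in both lists, where the authors' signal values were 2.20 and 3.16 for methamphetamine and 1.79 and 2.67 for saline, while positions 1, 3 and 4 stood in neither. Of the 267 positions with a mean CPM at least as high as that of position 3, 35 were listed (13.1%). At or above the mean CPM of position 5, 776 of 2701 were listed (28.7%). Over all 147438 positions, 13811 were listed. Most positions with such read counts thus stood in neither list. How the lists were filtered is not given in the sources used here.

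**Figure D4:**
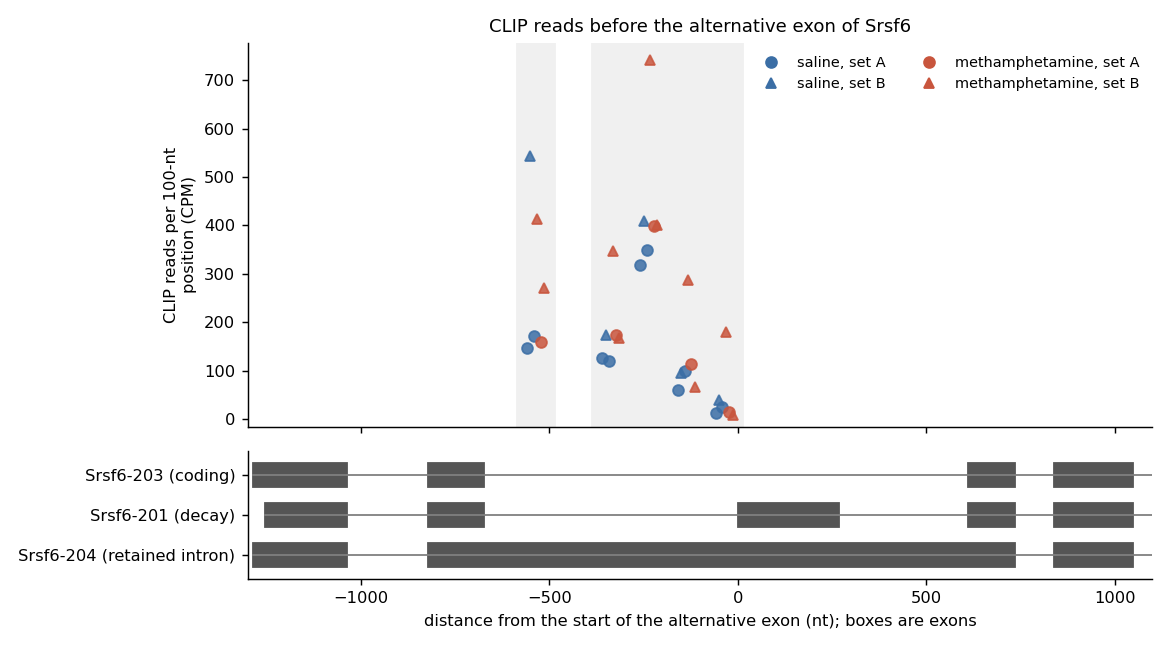
CLIP reads (y axis, CPM) at each 100-nt position of Srsf6 (shaded) against distance from the start of the alternative exon (x axis, nt), with 3 GENCODE transcripts below; blue is saline, red is methamphetamine, circles are set A and triangles set B. The reads sit in the intron before the alternative exon, and the highest point of 741 CPM is methamphetamine pool 1.

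The treatment difference in binding at Srsf6 was within the spread of the pools. The gene had 735, 1214 and 841 CPM in saline pools 1 to 3 and 1568, 976 and 892 CPM in methamphetamine pools 1 to 3, so methamphetamine pool 1 was the highest and the other 5 pools were mixed. The saline mean was 930.0 ± 252 CPM and the methamphetamine mean 1145 ± 368 CPM (SD, n = 3 each), a log2 change of 0.30 ± 0.37 (SE) with an adjusted p of 0.907 in edgeR's quasi-likelihood test. Of the 5 positions, 4 were higher after methamphetamine and position 1 was not, with log2 changes from -0.02 ± 0.60 (position 1) to 1.44 ± 1.09 (position 5) and adjusted p-values of 0.996 to 0.997. Position 5 took its value from 1 library: without methamphetamine pool 1 the change was -0.97. By library set, positions 1 and 3 were higher in each set B library, with 270 to 544 against 147 to 172 CPM at position 1 and 402 to 741 against 318 to 399 CPM at position 3. They were the only 2 of 12 tested SR positions whose sets did not overlap, beside 26.1% of all tested positions, and with CPM scaled to the totals of peak reads the sets overlapped at position 3. The share of the gene's reads at each position was compared as well, with a two-sided exact permutation test over 3 against 3 libraries, where 0.1 is the smallest p possible. Position 3 held 41.8% ± 8.41 of the reads after saline and 42.4% ± 4.50 after methamphetamine (exact p = 0.9), and the 5 exact p-values ran from 0.3 to 1, each 1 after adjustment over the 5.

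Srsf5 had 450 CLIP reads over 15 positions, and unlike those of Srsf6 they were spread from the first exon to the last. The gene total was 43.7, 91.8 and 61.6 CPM in saline pools 1 to 3 and 151, 82.4 and 71.5 CPM in methamphetamine pools 1 to 3, which overlapped. Relative to RNA the totals were -0.20, 0.48 and 0.50 after saline and 0.89, 0.73 and -0.29 after methamphetamine, on the log2 scale, and overlapped too.

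The position that brought Srsf5 into view is the first one (chr12:80945605-80945704), in the 5′ UTR. It had 8, 3 and 17 reads in saline pools 1 to 3 and 38, 21 and 17 in methamphetamine pools 1 to 3, so saline pool 3 and methamphetamine pool 3 were equal in reads. Scaled to library size these were 6.89, 8.04 and 8.93 CPM and 53.9, 18.0 and 29.8 CPM, and the groups did not overlap. The fitted log2 change was 2.06, a 4.17-fold difference, given as a description because the position was put forward for being higher. Within set A the values were 6.89 and 8.93 CPM after saline and 18.0 after methamphetamine, and within set B they were 8.04 CPM after saline and 53.9 and 29.8 after methamphetamine. Only the methamphetamine list held this position, with the authors' signal value of 2.39.

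The bases around it are shown because the position crosses an exon boundary, and it holds 2 G-runs, the longer of 4 bases. The window of position 1 is chr12:80945614-80945643 and that of position 13, in the 3′ UTR, is chr12:80950105-80950134, both on the plus strand and drawn as before from GENCODE M21, with runs of 3 or more G in capitals.
Srsf5 position 1: ctccgtcgcagactacggacctctccGGGG
Srsf5 position 13: atttctttgtagatgtggaccaccaaGGGG
Of the 100 nt of position 1, 68 lie in the first exon of the coding transcript Srsf5-201, which ends at 80945672, and the rest run into the intron, whereas the first exon of Srsf5-205 reaches 80945798 and covers all of it. A read there can therefore come from spliced or unspliced RNA, which the counts cannot tell apart.

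The 2 neighbouring positions in the first intron had lower means after methamphetamine, and only position 3 had no overlap. Position 2 (chr12:80945805-80945904), 133 nt after the first exon of Srsf5-201, had 17, 5 and 21 reads in the saline pools, against 6, 20 and 0 with methamphetamine, or 14.6, 13.4 and 11.03 CPM against 8.51, 17.2 and 0. Methamphetamine pool 2 was the highest of the 6 there. Position 3 (chr12:80945905-80946004) had 12, 5 and 20 reads in the saline pools, against 6, 10 and 1 with methamphetamine, 10.3, 13.4 and 10.5 CPM against 8.51, 8.58 and 1.75, with no overlap. The saline list alone held position 2, and both lists held position 3, at a signal value of 1.80 after saline and 0.96 after methamphetamine. These lists come from the same CLIP libraries and are no separate check. Of the reads in these 3 positions, which span 400 nt, position 1 held 21.6% to 29.3% after saline (8 of 37, 3 of 13 and 17 of 58) and 41.2% to 94.4% after methamphetamine (38 of 50, 21 of 51 and 17 of 18). This share of the 3 positions was chosen with their values known, and rests on 13 to 58 reads per library.

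**Figure D5:**
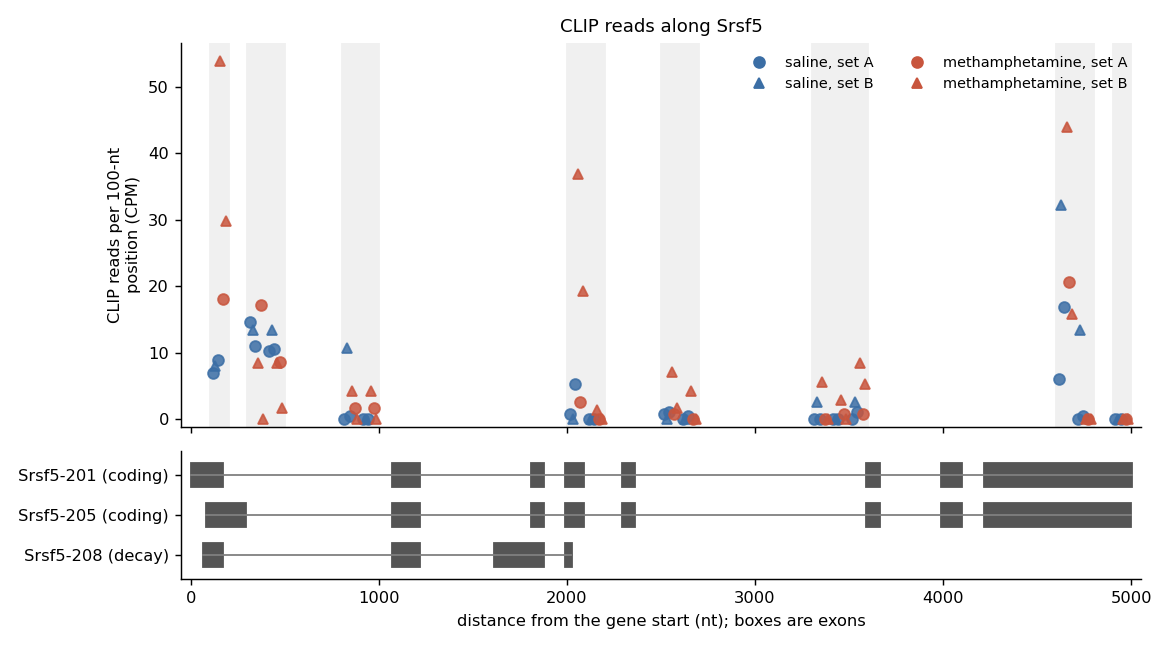
CLIP reads (y axis, CPM) at each 100-nt position of Srsf5 (shaded) against distance from the gene start (x axis, nt), with 3 GENCODE transcripts below; blue is saline, red is methamphetamine, circles are set A and triangles set B. At the first position the 3 red points (18.0 to 53.9 CPM) lie above the 3 blue points (6.89 to 8.93 CPM). Away from it the highest points are methamphetamine pool 1 at 44.0 and 36.9 CPM and saline pool 2 at 32.1 CPM.

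The remaining listed positions of Srsf5 overlapped between treatments. Position 6 (chr12:80947505-80947604), 90 nt of which lie in exon 4 of Srsf5-201, had 1, 0 and 10 reads in the saline pools, against 26, 3 and 11 with methamphetamine, and stood in the methamphetamine list alone. Position 13 (chr12:80950105-80950204), in the 3′ UTR, had 7, 12 and 32 reads in the saline pools, against 31, 24 and 9 with methamphetamine and stood in both lists. It held the most reads of the gene, 115, and its log2 change of 0.64 is again a description.

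In Srsf10 (chr4:135855747-135869908, plus strand) the 3 listed positions lie within the first intron and all stood in both lists. Position 5 (chr4:135857048-135857147) had 8, 18 and 16 reads in the saline pools, against 9, 6 and 6 with methamphetamine, while position 3 (chr4:135856748-135856847) had 5, 1 and 12 against 3, 15 and 10. The groups overlapped at both. Summed over the gene, the reads were 27, 24 and 54 after saline and 47, 50 and 28 after methamphetamine, a log2 change of 0.38 ± 0.45 (SE; edgeR adjusted p 0.905). Relative to RNA, each methamphetamine pool (2.14, 2.37 and 1.94 on the log2 scale) lay above each saline pool (0.77, 1.76 and 1.79), the only 1 of 7 SR genes to do so, beside 7.67% of all genes whose groups did not overlap in either direction. That difference was 0.71 ± 0.50 (SE) with an adjusted p of 0.997 in the limma fit.

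Srsf1 (chr11:88047373-88053755, plus strand) had its listed positions in the first intron and in the 3′ UTR, a region known to be conserved and alternatively spliced. Position 15 (chr11:88051274-88051373) had 8, 2 and 8 reads in the saline pools, against 21, 10 and 1 with methamphetamine, and was listed for methamphetamine. Position 16 (chr11:88051374-88051473), next to it, had 5, 1 and 7 reads against 9, 8 and 1 and was listed for both. The windows of the pair, chr11:88051331-88051360 and chr11:88051374-88051403 on the plus strand, are shown for their contrast: position 15 has the longest G-run among the 8 listed SR positions that could be read, 7 bases, and position 16 has none of 3 or more.
Srsf1 position 15: tggtaaacatttaaaGGGGaaaaGGGGGGG
Srsf1 position 16: gtaaatcagtaagtcacttctaaatttaaa
The gene sums of Srsf1 were 22, 24 and 35 reads in the saline pools, against 81, 41 and 17 with methamphetamine, or 20.9, 61.2 and 20.1 CPM against 91.1, 39.7 and 28.9, with a log2 change of 0.72 ± 0.62 (SE; edgeR adjusted p 0.885).

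Srsf3 (chr17:29032628-29043373, plus strand) had 1 listed position, at the start of its first intron (chr17:29032829-29032928), with 71 of the gene's 89 reads. The counts there were 13, 2 and 35 after saline and 5, 6 and 10 after methamphetamine, a log2 change of -0.40 ± 0.68 (SE; edgeR adjusted p 0.996), although only the methamphetamine list held it. Its bases are annotated as exon only in retained-intron transcripts. The window chr17:29032832-29032861 is shown as the only listed binding of Srsf3, with 4 G-runs in the 100 nt.
Srsf3 position 1: ggagttccgcagactcgaggtGGGGccGGG
A second peak is listed under the name Srsf3 but lies on the other strand (chr17:29032443-29032542, minus strand), in the non-coding gene Gm16196, whose own position it is and 86 nt before the start of Srsf3. It had 3224 reads in saline pool 1 and 5 to 65 in the other 5 libraries, and it was left out of the Srsf3 values.

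Srsf11 (chr3:158010473-158036639, minus strand) had no listed position, yet 128 of its 253 reads (50.6%) lay in position 17 (chr3:158024874-158024973), in an intron that only the retained-intron transcript Srsf11-208 spans. The counts there were 27, 7 and 48 after saline and 8, 19 and 19 after methamphetamine, a log2 change of -0.18 ± 0.51 (SE; edgeR adjusted p 0.996). The longest G-run of that position was 2 bases. Srsf4 (chr4:131873617-131901706, plus strand), a long SR protein with an extended tail, had no listed position either, and its 258 reads were scattered over 32 positions. Its highest, position 12 (chr4:131879918-131880017, in the first intron), had 7, 1 and 32 reads in the saline pools, against 14, 15 and 4 with methamphetamine, a log2 change of 0.48 ± 0.71 (SE; edgeR adjusted p 0.996). Srsf9 (chr5:115327177-115333080, plus strand) had 68 reads, Srsf7 (chr17:80200080-80207307, minus strand) 45 and Srsf2 (chr11:116849901-116853094, minus strand) 36, with no listed position and at most 8 reads in a position of any library. For these 3 genes a treatment difference was not detectable at this depth.

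No SR gene passed the test for a treatment difference in CLIP reads, leaving out Srsf5. Reads of the whole family made up 0.0922%, 0.140% and 0.115% of the peak reads in saline pools 1 to 3 and 0.208%, 0.130% and 0.113% in methamphetamine pools 1 to 3, so methamphetamine pool 1 was high and the other 5 pools were mixed. Of the 7 genes with enough reads, Srsf5 included, 6 were higher and Srsf3 lower after methamphetamine. The median log2 change was 0.38 against 0.04 over all 8177 genes tested. Srsf5 (0.65) is among the 6 and was put forward for a higher peak, so this count and median are not free of that choice. The median with methamphetamine pool 1 left out was 0.01, with 4 of 7 higher. None of the 6 genes tested passed in edgeR's quasi-likelihood test, where 0 of all genes did (0%) and DESeq2 also called 0. At an unadjusted p under 0.05 the counts were 0 of these 6 and 429 of all genes (5.25%). The treatments overlapped in all 7 genes, where they did not overlap in 9.58% of genes tested, and the library sets overlapped in all 7, where they did not in 25.5%. A gene enters the tested group only with enough reads in enough libraries, so these counts describe the 7 genes that did. Relative to RNA, none of the 6 tested genes passed either in the limma fit (0%). At an unadjusted p under 0.05 in that fit there were 0 of the 6, beside 219 of 7029 genes (3.12%). The median change over the 7 genes, Srsf5 again included, was 0.23 against 0.05 over all genes. That median was -0.04 without methamphetamine pool 1, with 2 of 7 higher, and -0.02 without saline pool 1.

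Of the 154 positions, 147 had a read in some library, 12 had enough reads to be tested and 8 of those lie outside Srsf5. None of the 8 passed in edgeR's quasi-likelihood test, with 0 of 10358 positions passing in all (0%), and none had an unadjusted p under 0.05, beside 369 of all tested positions (3.56%). All 3 methamphetamine values exceeded all 3 saline values in 6 of the 154 positions, 1 of them in Srsf5, beside 3.31% of all positions, and below in 1, also in Srsf5, beside 2.03%. The other 5 were positions 27 and 29 of Srsf4, 2 and 4 of Srsf10 and 9 of Srsf9, named after their values were seen, and held at most 9 reads in a library.

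The deposited lists held 13 SR positions for methamphetamine and 9 for saline, of which 8 stood in both, 61.5% of the first and 88.9% of the second. Over all genes the shared part was 48.7% of 9903 listed positions for methamphetamine and 50.0% of 9537 for saline. By the midpoint of the peak, 8 of the 13 methamphetamine positions lay in introns (61.5%, beside 67.7% of the whole list), 3 in a 3′ UTR, 1 in a 5′ UTR and 1 in a coding exon. In the saline list 7 of 9 lay in introns (77.8%, beside 72.2%) and 2 in a 3′ UTR. With 1 list per treatment these shares have no replicate check.

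Guanine runs were common in the SR positions as in listed positions at large. Of the 14 listed SR positions, 8 lie within 1 annotated exon and could be read. A run of GGG, searched on the gene's strand with any overlap, occurred in 7 of the 8 (87.5%), beside 82.4% of 3403 readable listed positions, and GGGG in 6 (75%), beside 49.7%. Over all 82 readable positions of the SR genes, listed or not, the shares were 57.3% and 29.3%. These are counts of letters in 100 nt and do not mark binding sites. Bases annotated as exon only in retained-intron transcripts occurred in 4 of the 14 (28.6%), positions 2 and 5 of Srsf6, position 1 of Srsf3 and position 6 of Srsf5, beside 3.87% of all listed positions and 29.2% of all 154 SR positions, so the listed SR positions had about the share of the SR positions at large. Bases found as exon only in decay transcripts occurred in 0 of the 14, beside 0.492%. The members are few and share genes, and SR genes carry many annotated transcripts, from 4 in Srsf4 and Srsf6 to 19 in Srsf11.

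Genes for proteins that act with SR proteins were compared in the same fits. Of 21 genes for SR-related proteins, 14 were higher and 7 lower in RNA after methamphetamine (median log2 change 0.05), and of 10 genes for the kinases and the importer 8 were higher and 2 lower (median 0.09), with 0 called in either list. Without methamphetamine pool 3 these counts were 12 of 21 and 5 of 10 higher, with medians of 0.01 and 0.02. The 2 with the smallest unadjusted p in RNA, as a ranking only, were Luc7l3, a splicing factor bound to the early spliceosome, and Nktr, a cyclophilin with an arginine- and serine-rich tail. Luc7l3 had a saline level of 4.08 ± 0.24 log2 CPM and 4.49 ± 0.21 with methamphetamine (SD, n = 3 each; difference 0.40 ± 0.22 SE; limma adjusted p 0.9998), and Nktr had 5.99 ± 0.30 and 6.32 ± 0.14 (0.33 ± 0.19 SE; limma adjusted p 0.9998). Tra2b, an SR-like splicing activator, had 4.76 ± 0.46 and 4.89 ± 0.39 log2 CPM. Srpk1, the cytoplasmic SR kinase, had 6.28 ± 0.30 and 6.26 ± 0.04, and Tnpo3, the importer, had 4.77 ± 0.57 and 4.85 ± 0.35.

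In CLIP, 16 of 18 tested SR-related genes and 5 of 8 kinase and importer genes were higher after methamphetamine, with medians of 0.54 and 0.24 and 0 called, beside 52.3% of all genes higher and a median of 0.04. Without methamphetamine pool 1 the medians were 0.30, with 14 of 18 higher, and 0.19, with 6 of 8 higher. Without methamphetamine pool 3 the kinase and importer median was -0.039, with 3 of 8 higher. The 3 methamphetamine pools lay above the 3 saline pools in 5 of these 26 genes, beside 4.88% of all genes tested, and below them in 1, beside 4.7%. They were Srrm2, Srek1, Acin1, Srpk1 and Clk1 above and Srrm4 below, named after their values were seen. Clk1, a nuclear SR kinase whose own transcript retains introns, had 6, 4 and 11 CLIP reads in the saline pools, against 23, 12 and 10 with methamphetamine, 5.70, 10.2 and 6.33 CPM against 25.9, 11.6 and 17.0. Its log2 change was 1.36 ± 0.56 (SE; edgeR adjusted p 0.883) while its RNA was 2.34 ± 0.24 and 2.43 ± 0.45 log2 CPM. Srpk1 had 51.0 ± 22.1 CLIP CPM in the saline pools and 84.1 ± 18.7 with methamphetamine (SD, n = 3 each), a log2 change of 0.69 ± 0.44 (SE; edgeR adjusted p 0.883). Tra2b, with 24.7 ± 1.76 and 31.8 ± 8.13 CPM, and Tnpo3, with 16.5 ± 17.5 and 14.9 ± 4.12 CPM, overlapped between treatments.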

How the data were processed

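RNA-seq and hnRNP H CLIP-seq were compared between 3 saline and 3 methamphetamine pools of wild-type mouse striatum, each a separate pool of mice. The submitters' processing notes name Trimmomatic, UMI-tools, STAR, bedtools, Subread, featureCounts, limma and edgeR and the build mm10, with no role or version, and the peak caller and its filters are not given in the sources used here. Per the labels, RNA-seq values are voom log2 CPM. They inverted to whole reads within 0.05 reads in 100% of cases, at an offset of 0.5 reads. The deposited CLIP table holds raw read counts, and its 147438 distinct positions were used once each, since 24597 of 172271 lines repeat another. Each deposited list covers a whole treatment and gives a score per peak, called the signal value here, whose scale is not stated, and the authors' q-value, at most 0.04997. Positions were read as 100 nt, although the count table gives a length of 101. GENCODE M21 (GRCm38, the same assembly as mm10) supplied gene models and sequences, and 147328 positions lay in their own gene there.

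RNA levels were tested over all genes with limma 3.58.1 (eBayes with a trend). CLIP counts, per position and summed per gene, were tested with edgeR 4.0.16 in R 4.3.3 after filterByExpr and TMM scaling (factors 0.775 to 1.19 for positions). The SE of a change in CLIP counts was computed as its size over the square root of the F statistic of that test. P-values were adjusted by Benjamini-Hochberg over all features, at 0.05. CLIP relative to RNA is log2 CLIP CPM minus log2 RNA CPM of the same pool, tested with limma. Permutation tests used scipy 1.17.1. Each fit was first tested on simulated data, where most of the smaller changes put in were not recovered. A null result here therefore does not exclude such changes. Alternatives were DESeq2 1.42.0, edgeR on recovered reads, other scalings, offsets and filters, a library set term, a replicate block and each pool left out. The members, gene lists, library sets and named genes were chosen with earlier results of these data known. All 10 SR genes are named. Of the wider list, Tra2b, Clk1, Srpk1, Tnpo3 and the 2 genes with the smallest RNA p are named by rule, and Srrm2, Srek1, Acin1 and Srrm4 were named after their values were seen.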

Additional observations from a re-analysis of the deposited data

How the results depend on the processing

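The count of called genes or positions was 0 in all 4 comparisons under each alternative run, leave-one-out included, with 1 exception: with no count filter edgeR called 414 CLIP positions, in 413 of which 1 library held most reads, and none was an SR position. Depth limits the CLIP results, since 12 of 154 SR positions had enough reads to be tested, and 3 pools per treatment limit all comparisons. Of 606 recomputed values of single genes and positions, 67 reversed and 539 were labelled the same, and the cause of the reversals was not tested. The label followed direction, except that Srsf5 CLIP values were judged by their distance from the main value relative to its SE. Some of those Srsf5 values also changed sign, as the ranges below show. With the peaks at or above the median signal of their list, 50.0% of 4 saline SR positions stood in both lists and 100% lay in introns, and of 6 methamphetamine SR positions 33.3% stood in both lists and 50.0% lay in introns.

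Replicate numbers were checked for pairing: deviations of same-numbered pools correlated at -0.346, -0.821 and -0.489 in RNA and -0.249, -0.413 and -0.0373 in CLIP. Each same-numbered pair joins a pool of set A and a pool of set B, so the check cannot tell whether they share more than a number. A replicate block called 0 in each comparison, with 144 (RNA), 109 (CLIP positions), 184 (CLIP genes) and 149 (relative to RNA) at an unadjusted p under 0.05, beside 276, 369, 429 and 219 without it. Under the block, log2 changes reversed to 0.18 at Srsf6 position 1 and 0.15 in CLIP of Tnpo3.

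A library set term reversed RNA changes to 0.11 (Srsf2), -0.18 (Srsf3), -0.10 (Srsf7), -0.025 (Tra2b), -0.095 (Clk1), 0.051 (Srpk1) and -0.16 (Tnpo3), CLIP changes to -0.013 (Srsf11) and 0.36 (Tnpo3), and changes relative to RNA to -0.27 (Srsf11), -0.025 (Srsf6) and 0.24 (Luc7l3). Scaling to recovered totals moved the median RNA change of all genes to 0.09 and gave 0.063 (Srsf2) and 0.065 (Srpk1). DESeq2 gave 0.044 at Srsf6 position 1.

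Unadjusted counts in RNA were 109 with edgeR, 113 with a mean log2 CPM above 1, 541 with the set term, 518 without a trend and 192 to 958 with 1 pool left out. Those of CLIP positions were 271 to 1092 with 1 pool left out, those of CLIP genes 194 from listed positions alone and 217 to 908 with 1 pool left out, and those relative to RNA 337 with the set term and 188 to 596 with 1 pool left out.

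With each pool left out in turn, RNA changes ran from -0.24 to 0.12 (Srsf2), -0.13 to 0.30 (Srsf3), -0.083 to 0.26 (Srsf4), -0.16 to 0.24 (Srsf6), -0.10 to 0.32 (Srsf7), -0.038 to 0.36 (Srsf11), -0.14 to 0.30 (Tra2b), -0.051 to 0.36 (Clk1), -0.17 to 0.12 (Srpk1) and -0.21 to 0.36 (Tnpo3). CLIP positions ran from -0.99 to 0.16 (Srsf3 position 1), -0.37 to 0.87 (Srsf6 position 1), -0.97 to 2.01 (Srsf6 position 5) and -0.67 to 0.14 (Srsf11 position 17). At Srsf5 position 2 the range was -1.52 to 0.034. CLIP gene sums ran from -0.14 to 0.43 (Srsf11), -0.91 to 0.15 (Srsf3), -0.059 to 1.01 (Srsf4), -0.25 to 1.72 (Luc7l3) and -0.65 to 0.90 (Tnpo3). Relative to RNA the ranges were -0.35 to 0.31 (Srsf11), -0.76 to 0.10 (Srsf3), -0.18 to 0.91 (Srsf4), -0.044 to 0.62 (Srsf6), -1.46 to 1.12 (Luc7l3), -0.18 to 0.81 (Nktr), -0.10 to 0.49 (Tra2b) and -0.81 to 1.06 (Tnpo3). Srsf5 relative to RNA ran from -0.099 to 0.50.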
